A study of Caenorhabditis elegans with 8 samples.

Results

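The genes described here encode the subunits of the 26S proteasome of *Caenorhabditis elegans*. They were taken by name, as every protein-coding gene of the WBcel235 annotation called *pas*, *pbs*, *rpt* or *rpn* followed by a number, and 33 of 19973 protein-coding genes matched. The set holds 7 *pas* genes for the alpha ring of the core particle, 7 *pbs* genes for its beta ring, 6 *rpt* genes for the ATPase ring of the regulatory particle and 13 *rpn* genes for its non-ATPase subunits. Of these, 10 lie on chromosome I, 7 on II, 8 on III, 3 on IV and 5 on V, and their annotated lengths run from 932 to 4010 bp with a median of 1490 bp.

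The proteasome is the main protease for proteins tagged with ubiquitin. Its core is a barrel of stacked alpha and beta rings, in which the alpha subunits form the gate and 3 of the beta subunits cut peptide bonds, and its cap binds ubiquitin chains, removes them and threads the unfolded substrate into the barrel. The genes are used in nearly every cell, and in *C. elegans* the transcription factor SKN-1 controls many of them. In transcription-coupled repair, an RNA polymerase stalled at damage in the transcribed strand (TS) recruits CSB, which brings in the excision machinery. Global repair, which starts with XPC, works on the TS and on the non-transcribed strand (NTS).

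XR-seq sequences the short oligomers that excision repair cuts out around ultraviolet damage, here cyclobutane pyrimidine dimers (CPDs), so that each read marks 1 repair event and its strand. The report uses 8 libraries in 4 groups of 2. Wild type (WT, strain N2 ancestral) and *csb-1* (strain RB1801) were L1 larvae collected 1 h after UVB, and *xpc-1* (strain TG2226) was a mixed-stage population collected 1 h after UVB. The fourth group was WT L1 larvae without UV. Each mutant is 1 strain, every library was made from whole worms, and the labels do not say whether the 2 libraries of a group came from separate cultures, so that p-values measure only the spread between these libraries. In the mixed-stage *xpc-1* worms genotype and stage cannot be told apart, and their values are set beside those of the larvae without a test. More repair per cell and repair in more cells cannot be told apart in whole worms.

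Reads kept after the mapping filter numbered 3252700 to 13203914 in the WT and *csb-1* libraries, 4762651 and 143716 in *xpc-1*, and 10260 and 12916 without UV. The stretch of *csb-1* that no *csb-1* read touched, 965 bp on chromosome X, held 52 and 26 reads in WT. An 852 bp stretch of *xpc-1* without reads in *xpc-1* held only 5 and 3 reads in WT, which is too few to check that label. The pooled TS share of 12 listed genes of adults or the germline was 53.0% and 47.4% in WT larvae and 73.7% and 72.0% in the mixed-stage worms. The pool summed opposite balances. In *xpc-1* replicate 1, *bli-1* held 11 TS and 192 NTS reads and *bli-2* 3 and 161. There *oma-1*, *oma-2*, *rme-2* and *puf-5* had TS shares from 84.9% to 97.8%. Protein-coding genes outside the proteasome set had 55.0% and 56.2% in WT and 84.5% and 83.7% in *xpc-1*. The share was thus higher in *xpc-1* over genes in general, and the 12 genes cannot check stage.

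The WT libraries placed 7142 and 3088 reads in the proteasome genes, the *csb-1* libraries 3924 and 7772, the *xpc-1* libraries 13417 and 553, and the unirradiated libraries 9 and 13. A single proteasome gene held 101 to 458 reads in WT replicate 1 but 4 to 39 in *xpc-1* replicate 2, in which 16 of the genes had no NTS read. Without UV, 25 and 22 of the 33 genes had no read, which allows up to 3 reads each, and the unirradiated libraries are given no further values by gene.

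The excision events themselves can be read from the oligomers. For each gene the position on the TS where the most oligomers ended at their 3′ side was found over the 6 irradiated libraries, and the WBcel235 sequence of the 24 bases up to that end is shown for genes of each ring and of the cap. They are printed because the dimer lies at a fixed distance from that end, and the capitals mark the TT, or the run of T that holds it, within bases 9 to 6 counted from the 3′ end.
*pas-2*, chrV:10771293-10771316, minus strand: ccgtagcaaaaagagaTTactacc
*pas-7*, chrII:10099107-10099130, plus strand: tcaccgacccatcccaTTTcgatt
*pbs-1*, chrIV:1709485-1709508, plus strand: acggcacacaaccataTTatcggt
*rpt-1*, chrV:11980756-11980779, plus strand: ttggagtggcgctgaaTTTggcat
*rpn-2*, chrIII:6200513-6200536, minus strand: ggctcaagtaccttcaTTgcagac
*rpn-3*, chrIII:8449064-8449087, minus strand: atacacacaaaattaTTTacggag
*rpn-11*, chrII:4043043-4043066, plus strand: ataaacaataaatcgaTTaaaggc
*rpn-6.1*, chrIII:6961937-6961960, plus strand: gaactcgtttctctcaTTaggacg

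The leading site of all 33 genes had a TT in those bases. At the *pas-7* site 6 and 7 oligomers ended in WT, 5 and 7 in *csb-1*, and 7 and 1 in *xpc-1*. At the *pbs-1* site 6 and 4 ended in WT, 5 and 2 in *csb-1*, and 6 and 0 in *xpc-1*. The *rpn-6.1* site, 42 bases into the gene, held 6 and 4 in WT, 5 and 7 in *csb-1*, but 1 and 0 in *xpc-1*. The leading site took 1.45% to 6.60% of a gene's TS reads, a share that deduplication keeps low, so it does not show how widely repair was spread. Reads were deduplicated before deposit, so that oligomers at 1 end differ in length or in a base and a strong site cannot rise far above such counts. Over all TS reads of the proteasome genes, 79.2% and 79.8% carried a TT in those bases in WT, 83.6% and 80.0% in *csb-1*, and 74.3% and 78.3% in *xpc-1*, against 23.4% of all positions on the TS of these genes.

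In WT larvae most repair of the proteasome genes was on the TS, and in *csb-1* it was nearly even between strands. The pooled TS share, TS/(TS+NTS), was 69.1% (exact 95% interval 68.0 to 70.2) and 72.7% (71.1 to 74.3) in the WT libraries. It was 52.8% (51.2 to 54.4) and 52.9% (51.8 to 54) in the *csb-1* libraries, and 88.8% (88.3 to 89.3) and 93.5% (91.1 to 95.4) in *xpc-1*. In *xpc-1* replicate 1, *rpt-4* alone held 507 of the 1500 NTS reads, and the median TS share of a gene was 95.6%. Intervals cover counting error only, since reads are not independent molecules. The WT mean of 70.9% ± 2.58 (SD, n = 2) lay 18.1 points above the *csb-1* mean of 52.8% ± 0.0558 (SD, n = 2), and both WT libraries were above both *csb-1* libraries. A two-sided exact permutation test gave p = 0.33, the smallest that 2 against 2 libraries allow. All other protein-coding genes pooled had mean TS shares of 55.6% in WT, 49.3% in *csb-1* and 84.1% in *xpc-1*.

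Because CPDs form mainly at TTs, the share of a gene's TTs that lie on the TS gives the strand balance of damage sites. It ran from 37.4% to 56.4% over the 33 genes, with a median of 48.07% and a pooled value of 49.4%. In WT the exact interval of a gene's TS share lay above its TT share for 30 and 29 of the 33 genes, and for 29 in both libraries. In *csb-1* it lay above for 10 of the 33 genes in each library and below for 1, and 7 genes were above in both: *pas-2*, *pas-6*, *pas-7*, *pbs-2*, *pbs-4*, *pbs-7* and *rpn-5*. In *xpc-1* it lay above for 32 and 30 of the 33 genes, and only *rpt-4* lay below, in replicate 1. These counts were not made over all genes, so they do not set the 33 genes apart from others.

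**Figure D1:**
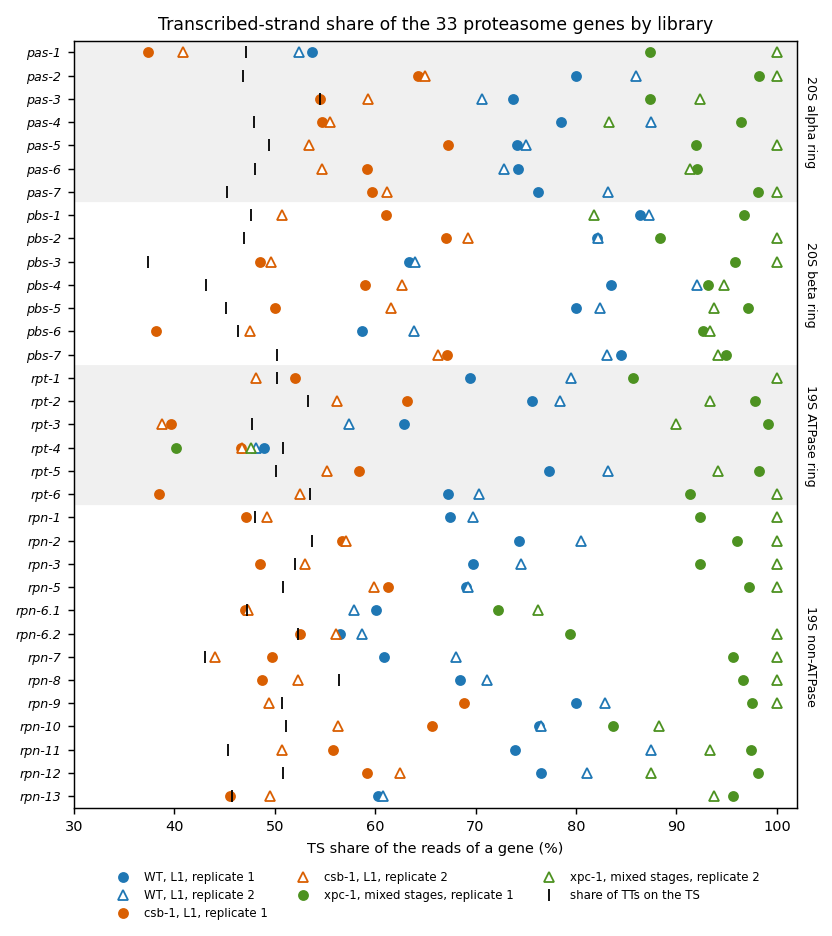
Share of each proteasome gene's XR-seq reads on the transcribed strand (percent) in each library, with 1 point a library and a black tick for the share of the gene's TTs on that strand. The WT points lay between 48.12% and 92.1%, the *csb-1* points between 37.4% and 69.2%, and *rpt-4* stayed below 50% in every irradiated library.

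The level of repair on the TS, as reads normalised to gene length and to the kept reads of the library (RPKM), was high for these genes. The median TS RPKM of the proteasome genes was 11.2 and 13.2 in WT against 4.41 and 4.45 over all protein-coding genes, 5.84 and 5.72 against 4.37 and 4.65 in *csb-1*, and 48.8 and 67.2 against 3.53 and 3.77 in *xpc-1*. On the NTS their median RPKM was 4.58 and 4.30 for WT, against 3.72 and 3.68 over all protein-coding genes. It was 4.44 and 4.83 for *csb-1* against 4.33 and 4.62, and 2.77 and 4.08 for *xpc-1* against 1.00 and 0. In the shallow *xpc-1* replicate 2 the median gene, *rpt-5*, held 1 NTS read and 16 of the 33 genes held 0. That pair of values is at the floor of the library. By TS RPKM, 31 of the 33 genes were above the 75th percentile of protein-coding genes in each WT library, 16 and 13 in the *csb-1* libraries, and all 33 in both *xpc-1* libraries. Across the 33 genes the mean TS level in WT and the TS level in *xpc-1* replicate 1 were correlated (Pearson's r = 0.77, Spearman's rho = 0.76), a description across genes that share base composition and length between the 2 measures.

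To compare the strand balance of genes with and without CSB-1, the log2 ratio of TS to NTS reads of each gene was tested by limma, WT minus *csb-1*, over 23836 genes. The TS and NTS levels were also compared by limma. Levels are relative to the kept reads of a library and the ratio is relative to the NTS, so an absolute loss of repair was not measured. Of the 33 proteasome genes, 26 had a higher ratio in WT at an adjusted p under 0.05 and 0 a lower one. Over all tested genes these shares were 13.3% higher and 0.344% lower. At an unadjusted p under 0.05, 31 of the 33 were higher and 0 lower, beside 5408 and 449 of the 23836 tested genes. The median difference was 1.22 on the log2 scale, a 2.33-fold higher ratio in WT, against a median of 0.21 over all genes. In all 33 genes both WT ratios were above both *csb-1* ratios, beside 41% of all genes. The calls depended on how the fit was set up. With no read filter or with spreads shrunk to 1 common value, 0 of the 33 passed. With the shrinkage following the mean ratio, which is limma's own trend, 0 of the 33 passed as well. In the reported fit the shrinkage followed log2 mean reads instead. The median difference was still 1.22 in all of these fits. Without *csb-1* replicate 1, 11 genes were called and without replicate 2, 14, in fits where the 1 library left in a group is assumed to vary like the pair of the other group.

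The TS level was higher in WT for 31 of the 33 genes and lower for 0, beside 12.8% of all genes higher and 2.16% lower, with a median difference of 1.09 (2.13-fold) against -0.01 over all genes. Only 2 genes passed without the read filter and 0 with spreads shrunk to 1 common value. On the NTS limma called 0 of the 33 genes in either direction, beside 0.155% of all genes higher and 0.185% lower, and the median difference was -0.14 against -0.22 over all genes, or 0.13 against 0.05 with levels centred on the median gene. At an unadjusted p under 0.05, *rpt-4* and *rpn-13* (0.44 each) were higher in WT and *pbs-4* (-0.98) and *pas-4* (-0.91) lower. Over all 23836 tested genes 473 were higher and 4538 lower at that threshold, so such differences were not particular to these genes. With the levels centred on the median gene *rpt-4* and *rpn-13* passed the adjusted threshold, beside 208 higher and 7 lower over all genes.

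**Figure D2:**
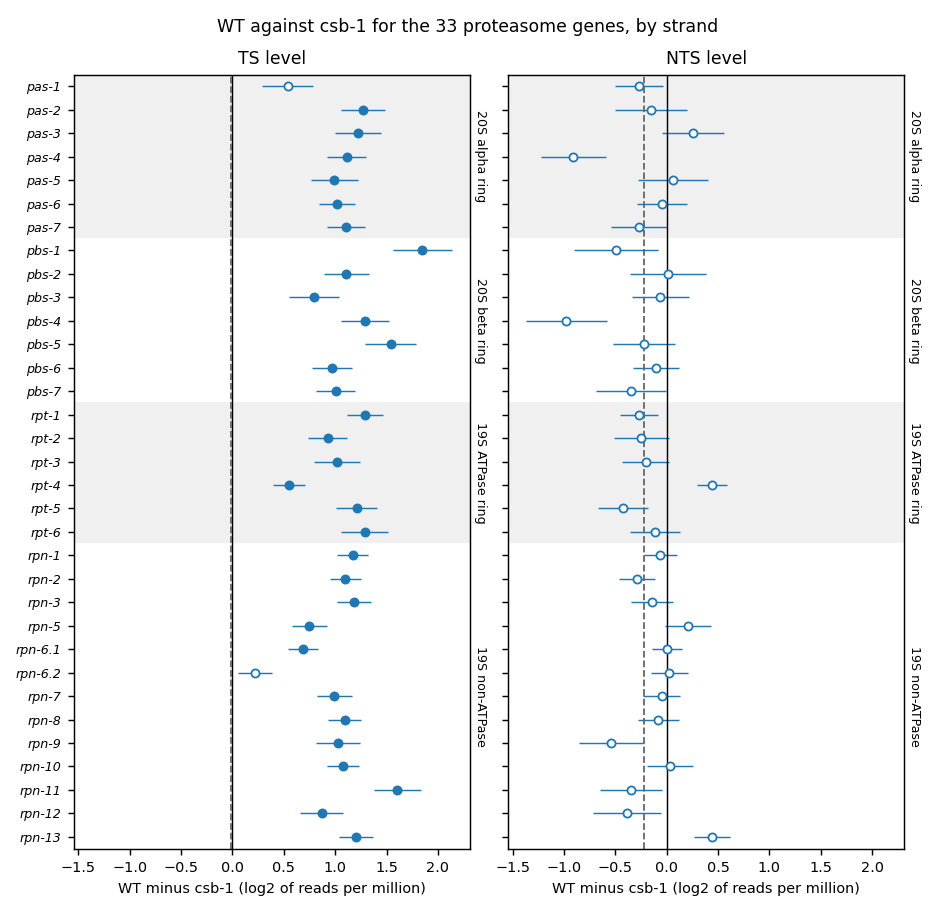
WT minus *csb-1* difference in log2 repair level on the transcribed and the non-transcribed strand for each proteasome gene, with standard errors, filled where the adjusted p was under 0.05 and with a dashed line at the median of all genes. TS differences were positive in all 33 genes and filled in 31, and none of the NTS differences was filled.

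The alpha subunits, encoded by *pas-1* to *pas-7*, close the barrel and open for substrate. Their median ratio difference was 1.06, and 4 of 7 passed for the ratio and 6 of 7 for the TS level. The largest was at *pas-4*, with 128 TS and 35 NTS reads in WT replicate 1 and 56 and 8 in replicate 2, against 52 and 43 and 96 and 77 in the *csb-1* libraries. Its TS share was 83.0% ± 6.34 (SD, n = 2) in WT and 55.1% ± 0.534 in *csb-1*, without overlap. The ratio was 4.001-fold higher in WT (log2 difference 2.00, SE 0.33, limma adjusted p = 0.00132). In *xpc-1* the gene held 295 TS and 11 NTS reads and 5 and 1. *pas-2* (1.41), *pas-7* (1.36) and *pas-6* (1.06) also passed, while *pas-3* (0.96, adjusted p = 0.0703), *pas-5* (0.92, 0.146) and *pas-1* (0.81, 0.119) did not. *pas-1* was also 1 of 2 genes without a call on the TS level (0.54, adjusted p = 0.169), and its TS share was 53.7% and 52.4% in WT and 37.4% and 40.9% in *csb-1*, beside 47.2% of its TTs.

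The beta ring had the largest median ratio difference of the 4 classes, 1.34, with 6 of 7 genes called for the ratio and 7 of 7 for the TS level. It holds the 3 catalytic subunits, which by orthology to the yeast and mammalian proteins are *pbs-1* (caspase-like), *pbs-2* (trypsin-like) and *pbs-5* (chymotrypsin-like). At *pbs-1*, whose leading excision site is printed above, 95 TS and 15 NTS reads fell in WT replicate 1 and 48 and 7 in replicate 2, against 33 and 21 and 34 and 33 in *csb-1*. The TS share of 86.8% ± 0.643 (SD, n = 2) in WT did not overlap that of 55.9% ± 7.33 in *csb-1*. The ratio was 4.98-fold higher in WT (2.32, SE 0.39, limma adjusted p = 0.00159), the largest of all 33 genes, and the TS level 3.60-fold higher (adjusted p = 0.000214). In *xpc-1* it held 238 TS and 8 NTS reads and 9 and 2.

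*pbs-5* held 116 TS and 29 NTS reads and 75 and 16 in WT, against 33 and 33 and 101 and 63 in *csb-1*. Its ratio was 3.36-fold higher in WT (1.75, SE 0.32, limma adjusted p = 0.00261), and its TS level 2.91-fold. In *xpc-1* it held 270 TS and 8 NTS reads and 15 and 1, the least even strand balance of its 3 groups. *pbs-2* stood apart from the other catalytic genes by its TS share in *csb-1*, 67.1% and 69.2%, among the highest there. It held 119 TS and 26 NTS reads and 46 and 10 in WT, 53 and 26 and 72 and 32 in *csb-1*, and 280 and 37 and 21 and 0 in *xpc-1*. Both WT shares, 82.1% each, were above the *csb-1* shares, and the ratio was 2.11-fold higher (1.07, SE 0.33, limma adjusted p = 0.0409).

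Of the beta subunits without catalytic activity, *pbs-4* had the second largest ratio difference of all 33 genes. It held 96 TS and 19 NTS reads and 58 and 5 in WT, 36 and 25 and 84 and 50 in *csb-1*, and 216 and 16 and 18 and 1 in *xpc-1*. The groups did not overlap, and the ratio was 4.69-fold higher in WT (2.23, SE 0.39, limma adjusted p = 0.00192). Its TS level rose by 1.29 from *csb-1* to WT, and its NTS level was 0.98 lower in WT, short of the adjusted threshold. *pbs-7* (1.34) and *pbs-6* (1.07) passed for the ratio as well, and *pbs-3* (0.85, adjusted p = 0.125) did not.

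The 6 *rpt* genes encode the AAA ATPases that unfold substrates and push them into the core. For the ratio 5 passed, and for the TS level all 6, with a median ratio difference of 1.31. *rpt-5* (1.62, limma adjusted p = 0.00131), *rpt-1* (1.56, 0.00116), *rpt-6* (1.40), *rpt-3* (1.22) and *rpt-2* (1.16) were higher in WT. At *rpt-1*, 69.5% and 79.5% of reads were on the TS in WT and 52.0% and 48.17% in *csb-1*. *rpt-4* was the exception, with the smallest ratio difference of the 33 genes.

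*rpt-4* (chrII:42207-46216, minus strand) is the longest of the genes. It held 183 TS and 191 NTS reads and 77 and 83 in WT, 103 and 118 and 209 and 238 in *csb-1*, and 341 and 507 and 10 and 11 in *xpc-1*. The TS share was 48.9% and 48.12% in WT and 46.6% and 46.8% in *csb-1*, a ratio difference of 0.11 (SE 0.19, limma adjusted p = 0.800). Its TS level was 0.55 higher in WT (adjusted p = 0.0203), the smallest difference among the called genes, beside the 0.44 on the NTS. On the other strand *rpt-4* shares 1011 bp with *nfyc-1* and 1177 bp with *rpoa-49*, together 2188 bp, in which its NTS is the strand those genes transcribe from.

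Within the shared stretch the TS share of *rpt-4* was 32.7% (64 TS and 132 NTS reads) and 25.3% (21 and 62) in WT. It was 46.6% and 43.8% in the *csb-1* libraries, and 2.61% (13 and 486) and 0% (0 and 11) in *xpc-1*. In the other 1822 bp it was 66.9% (119 and 59) and 72.7% (56 and 21) in WT. It was 46.7% and 50% in the *csb-1* libraries, and 94.0% (328 and 21) and 100% (10 and 0) in *xpc-1*. Outside the shared stretch both WT values were above both *csb-1* values, inside it both were below, and over the gene these opposite balances were summed. Of the 10 proteasome genes with any overlap with a gene of the other strand 8 passed for the ratio, and of the 23 without 18 did, but in 8 of the 10 the overlap was only 4 to 140 bp. *rpn-7* and *nemt-1* share 485 bp, where the TS share of *rpn-7* was 66.7% and 72.0% in WT against 59.5% and 67.0% in the rest of the gene.

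**Figure D3:**
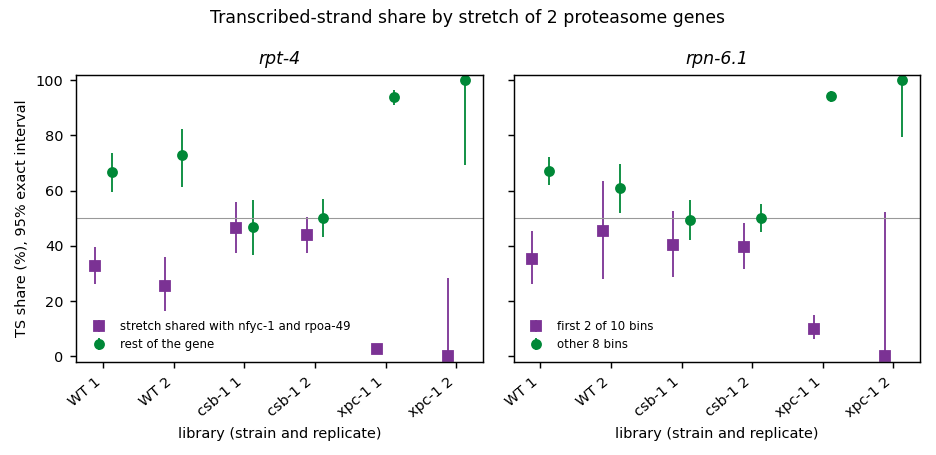
Transcribed-strand share (percent, with exact 95% intervals) in each irradiated library within 2 stretches of *rpt-4* (shared with other-strand genes, and the rest) and of *rpn-6.1* (first 2 of 10 bins, and the other 8). In *xpc-1* replicate 1 the share was 2.61% in the shared stretch of *rpt-4* and 94.0% in the rest, and 9.85% in the first 2 bins of *rpn-6.1* and 94.3% in the other 8.

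The non-ATPase genes encode the scaffold, the ubiquitin receptors and the lid of the cap. For the ratio 11 of the 13 passed and 12 for the TS level, with a median ratio difference of 1.17. *rpn-11*, the deubiquitinase that strips ubiquitin from substrates, held 125 TS and 44 NTS reads and 77 and 11 in WT, 48 and 38 and 70 and 68 in *csb-1*, and 266 and 7 and 14 and 1 in *xpc-1*. Its TS share was 74.0% and 87.5% in WT and 55.8% and 50.7% in *csb-1*, so that the groups did not overlap although the WT libraries lay apart. The ratio was 3.83-fold higher in WT (1.94, SE 0.38, limma adjusted p = 0.00357) and the TS level 3.05-fold. Its partner *rpn-8* had a difference of 1.17.

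The ubiquitin receptors and the scaffold are encoded by *rpn-1*, *rpn-10*, *rpn-13* and *rpn-2*. *rpn-1* (1.23, SE 0.18, limma adjusted p = 0.000801) and *rpn-2* (1.38, adjusted p = 0.000812) had the lowest adjusted p of the 33 genes, with 418 and 182 reads at *rpn-1* in WT. *rpn-10*, another receptor, had a TS share of 76.4% ± 0.152 (SD, n = 2) in WT and 61.0% ± 6.63 in *csb-1* and a ratio difference of 1.04. *rpn-13*, the third receptor, had a ratio difference of 0.76 (adjusted p = 0.0304) and a larger TS difference of 1.20 (adjusted p = 7.56e-05). Its NTS RPKM was also high, 9.07 ± 1.05 (SD, n = 2) in WT, so that its WT TS share was 60.5% ± 0.392.

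Of the lid genes, *rpn-9* (1.56), *rpn-3* (1.32), *rpn-12* (1.24) and *rpn-7* (1.04) passed for the ratio. *rpn-5* did not (0.54, SE 0.24, limma adjusted p = 0.187). It held 154 TS and 69 NTS reads and 63 and 28 in WT, 76 and 48 and 148 and 99 in *csb-1*, and 428 and 12 and 18 and 0 in *xpc-1*. Its TS share was 69.1% ± 0.122 (SD, n = 2) in WT and 60.6% ± 0.970 in *csb-1*, which did not overlap, and its TS level was 0.75 higher in WT (adjusted p = 0.00485).

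The paralogs *rpn-6.1* and *rpn-6.2*, both on chromosome III and the minus strand, differed from most of the set. *rpn-6.1* held 275 TS and 183 NTS reads and 92 and 67 in WT, 126 and 142 and 254 and 283 in *csb-1*, and 561 and 216 and 16 and 5 in *xpc-1*. WT shares of 60.0% and 57.9% were above *csb-1* shares of 47.0% and 47.3%, and the ratio was 1.61-fold higher in WT (0.68, SE 0.17, limma adjusted p = 0.0167). *rpn-6.2* held 153 TS and 118 NTS reads and 54 and 38 in WT, 94 and 85 and 213 and 167 in *csb-1*, and 300 and 78 and 4 and 0 in *xpc-1*. Its shares of 56.5% and 58.7% in WT lay just above 52.5% and 56.1% in *csb-1*, and neither the ratio (0.19, SE 0.21, adjusted p = 0.668) nor the TS level (0.22, adjusted p = 0.430) passed. Whether the paralogs differed from each other in this difference was not tested.

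In both paralogs the NTS reads of *xpc-1* lay near the start of the gene. When each gene was divided into 10 equal bins from start to end, the first 2 held most of them. This stretch was chosen after its values were seen and is described without a test. In the first 2 bins of *rpn-6.1*, 20 TS and 183 NTS reads fell in *xpc-1* replicate 1, a TS share of 9.85%, and 0 and 5 in replicate 2, against 94.3% (541 and 33) and 100% in the other 8 bins. In WT the TS share of the first 2 bins was 35.3% and 45.5%, below 67.1% and 61.1% in the rest, and in *csb-1* it was 40.3% and 39.7% beside 49.5% and 50.1%. The printed *rpn-6.1* site, with 1 read in *xpc-1*, lies in that stretch. No annotated gene overlaps it, and the nearest gene on the other strand, *F57B9.1*, lies 88 bp away. In the first 2 bins of *rpn-6.2*, 11 TS and 48 NTS reads fell in *xpc-1* replicate 1 (18.6%), against 289 and 30 (90.6%) in the rest, while WT had 61.1% and 55.6% there beside 54.8% and 60.7%.

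Over the same 10 bins in all genes, TS repair was higher in the first bin than in the last, by little in *csb-1* replicate 2. The TS RPKM over all 33 genes was 16.6 and 17.8 in the first bin and 10.2 and 10.4 in the last in WT, 7.89 and 6.99 against 5.48 and 6.75 in *csb-1*, and 60.8 and 109 against 32.9 and 35.4 in *xpc-1*. The TS also held more TTs at the start, 114 per kb in the first bin against 88.9 in the last. With the genes cut into 3 equal parts, the ratio of TS reads in the first part to those in the last was 1.22 ± 0.0680 (SD, n = 2) in WT and 1.05 ± 0.116 in *csb-1*. The *csb-1* libraries lay on either side of 1, at 1.13 and 0.966, and 12 of the 33 genes had more reads in the first part in replicate 2 against 21 with more in the last. Both WT ratios, 1.27 and 1.17, were above both, and an exact permutation test could give no p under 0.33, the value obtained. Per TT these ratios were 1.10 and 0.945. The other protein-coding genes had ratios of 1.28 in WT and 1.14 in *csb-1*.

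On the NTS the last bin was the highest of the 10 in the WT and *csb-1* libraries. NTS RPKM there was 9.92 and 9.60 in WT and 9.51 and 10.2 in *csb-1*, against 5.14 and 5.42 and 6.66 and 5.68 in bin 9. The NTS held 178 TTs per kb in the last bin and 107 in bin 9, so that TT content rose with the reads. In *xpc-1* the last bin had an NTS RPKM of 9.72 in replicate 1, the highest of its bins, and of 6.32 from 5 reads in replicate 2, below the 8.85 of bin 2. The bins of *xpc-1* replicate 1 include *rpt-4*, which held 507 of the 1500 NTS reads. Of these, 486 lay in the stretch shared with *nfyc-1* and *rpoa-49*, which lies outside the last bin. Only 21 lay in the rest of *rpt-4*, beside 255 NTS reads of all 33 genes in the last bin.

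**Figure D4:**
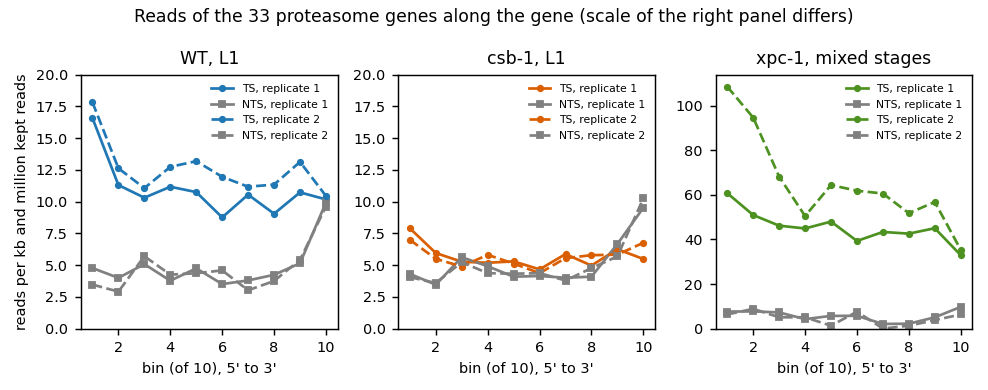
Repair on the transcribed and the non-transcribed strand (RPKM, summed over the 33 proteasome genes) in 10 equal bins of each gene from start to end, by library, with the *xpc-1* libraries on a scale of their own. TS repair in WT fell from 16.6 and 17.8 in the first bin to 10.2 and 10.4 in the last, and NTS repair was highest in the last bin in WT and *csb-1*.

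Genes next to each other on 1 strand can be transcribed together in worms. There are 8 proteasome genes with a gene of the same strand ending within 500 bp upstream, of which 5 passed for the ratio with a median difference of 0.94, and of the other 25 genes 21 passed with a median of 1.24. These sets were not compared by a test, and all genes were not split in this way. Across the 33 genes the ratio difference and gene length were weakly and inversely related (r = -0.39, rho = -0.23), a description in which the longest gene is *rpt-4*.

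Other genes of the ubiquitin-proteasome pathway were listed for comparison: ubiquitin genes, shuttle factors, the CDC-48 segregase, ubiquitin ligases, regulators of proteasome genes, and 4 genes of small subunits or proteins that associate with the proteasome (*dss-1*, *psmd-9*, *ubh-4* and *usp-14*). Of 23 listed, 22 had enough reads, and limma called 15 higher in WT and 0 lower for the ratio (median 0.99), beside 13.3% and 0.344% of all genes, and 18 higher and 0 lower for the TS level (median 0.73), beside 12.8% and 2.16%. The ratio was higher for the polyubiquitin gene *ubq-1* (1.03, adjusted p = 0.00134), for *ubq-2* (1.73, 0.0132), the shuttle factor *rad-23* (1.502, 0.00159), the segregase *cdc-48.1* (1.25, 0.000873) and the ubiquitin-activating enzyme *uba-1* (0.74, 0.00208). *skn-1*, the regulator of proteasome genes, had a difference of 0.70 (0.00139). Of the associated genes *ubh-4* (1.09, adjusted p = 0.0107) and *usp-14* (0.90, 0.00512), both for deubiquitinases, passed, and *dss-1* (0.16, 0.853) and *psmd-9* (-0.20, 0.840) did not, with *psmd-9* also negative for the TS level (-0.74, adjusted p = 0.135). *cdc-48.2* (0.22, adjusted p = 0.596), *png-1* (0.29, 0.504) and *ddi-1* (0.41, 0.370) did not pass, and *npl-4.2* (1.73, 0.125) missed the threshold with a large difference.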

How the data were processed

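XR-seq libraries were deposited as 1 interval list per sample. Per the study's methods the authors trimmed adaptors with cutadapt and aligned reads to ce11, which is WBcel235, with Bowtie 2 (versions are not given in the sources used here). The deposited score column was taken as mapping quality, and reads with a score over 20 on the 6 nuclear chromosomes were kept. Reads had been deduplicated by the authors, and each line was counted once. The number in each read's name, taken to be its count of merged copies although no source used here states this, averaged 1.86 in WT replicate 1 and 18.9 in replicate 2. A read belonged to a gene by its midpoint, and to the TS if its strand was opposite to the gene's. Reads in overlapping genes counted for each.

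Genes with a mean of 20 or more reads over the 4 WT and *csb-1* libraries were tested (23836 of 46890, all 33 proteasome genes included). log2((TS + 0.5)/(NTS + 0.5)) and the log2 CPM of kept reads with a prior of 0.5 were fitted in limma 3.58.1 (R 4.3.3). Empirical Bayes shrinkage followed log2 mean reads for the ratio and the mean log2 CPM of the strand for the levels. Benjamini-Hochberg adjustment was made over all tested genes. Scripts were tested on simulated data. Intervals are exact (Clopper-Pearson), from scipy 1.17.1. Gene models are Ensembl annotation 115, and sequences are from the WBcel235 genome. Alternatives were a replicate block, other pseudocounts, filters and scalings, and leaving out each library. No column of other samples was used.

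The members and lists were chosen with earlier results of these data known. Values in every library are given for the 5 genes with the largest and the 3 with the lowest ratio difference, for the catalytic beta genes and for the *rpn-6* paralogs. Printed sites are those of called genes outside chromosome I. L1 *xpc-1* libraries and RNA-seq were not analysed here.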

Additional observations from a re-analysis of the deposited data

How the results depend on the processing

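With no replicate block as reported, 26 of the 33 genes passed for the ratio, 31 for the TS level and 0 for the NTS level. With a replicate block these counts were 26, 31 and 0, while over all genes 3821 were higher and 167 lower for the ratio. Gene by gene, same-numbered libraries did not deviate together (correlations of -0.0036, 0.026 and 0.042). Counting noise lowers such correlations, so they cannot exclude a shared batch. The labels do not say whether the numbers pair the samples.
For the ratio, 0 of the 33 genes and 0 of all genes passed with no read filter or with spreads shrunk to 1 common value. The same held with the shrinkage following the mean ratio, which is limma's own trend. That alternative was added after seeing the data. Leaving out 1 library gave 11 to 27 genes, and over all genes 1206 and 1239 without either *csb-1* library and 6316 without WT replicate 1, against 3177; lower calls were 10, 13 and 1319 against 82, and 191 without WT replicate 2. For the TS level, no read filter gave 2 genes, 1 common value gave 0, and leaving out 1 library gave 26 to 31. Over all genes, 3056 higher and 514 lower became 90 and 270 with no filter and 0 and 0 with 1 common value; a replicate block gave 3488 and 896, and lower calls ran from 43 to 2105 with 1 library left out. For the NTS level, leaving out 1 library gave 0 to 2 genes higher and 0 to 2 lower, and median centring gave 2 higher and moved the median of the 33 genes from -0.14 to 0.13. Over all genes the NTS counts of 37 higher and 44 lower became 140 and 1231 with the replicate block, 68 and 662 at a mean of 100 reads, 56 and 217 with a pseudocount of 2, 112 and 225 at any mapping quality, 28 and 21 with each position counted once, 1 and 296 with no filter, 208 and 7 with centring, and 0 and 0 with 1 common value. They ran from 17 to 467 higher and 1 to 3708 lower with 1 library left out. With libraries thinned to equal depth, 22 of the 33 passed for the ratio, beside 2360 higher and 68 lower of 18967 tested genes. The differences of *rpt-4* and *rpn-6.2* then reversed to -0.015 and -0.22. Called for the ratio without each library in turn were 8 genes: *pas-4*, *pbs-1*, *pbs-4*, *rpn-1*, *rpn-11*, *rpn-2*, *rpt-1* and *rpt-5*. The pooled TS share difference of 18.1 points ran from 16.2 to 20.3 over all alternatives and omissions, and that of the ratio of first to last part of the genes, 0.17, from 0.09 to 0.26. Why the calls moved was not tested. How many of all genes kept their ratio call without each library in turn was not counted, so the genes named for this are not set apart from others. With 1 library left out, the lone library of its group is assumed to vary like the other group's pair. With 2 libraries a group no exact test of a single value could pass, and *xpc-1* replicate 2, at 4 to 39 reads a gene, limits statements on single genes there.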

Other observations

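In the 300 bases from 250 before to 50 after the annotated start, the letters TTGTCAT, searched on both strands as 1 form of the sites that SKN-1 is known to bind, were present in 8 of the 33 proteasome genes (24.2%) and in 7.01% of 19973 protein-coding genes. The other form searched, TTATCAT, was present in 1 of 33 (3.03%) and in 8.92% of all, and either form in 27.3% and 15.2%. The shorter ATCAT was in 57.6% of the proteasome genes and 55.6% of all genes, and GTCAT, which TTGTCAT contains, in 57.6% and 39.5%. These are matches of letters, given as a description, and binding was not measured. For 2 of the genes with a ratio call the match is shown with 10 bases on each side, in capitals and on the strand that reads TTGTCAT. Their coordinates (WBcel235) are those of the capitals.
*pbs-1*, chrIV:1709884-1709890, plus strand, farthest base 145 before the start: agaaaaaacaTTGTCATcaaatctcaa
*rpt-2*, chrV:6017785-6017791, minus strand, farthest base 122 before the start: cgcgcttgcaTTGTCATcatcaacgct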
